A study of Mus musculus with 6 samples.

Results

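The expression of 31 genes of cholesterol synthesis, uptake and export was compared between whole islets of WT mice and of heterozygous *Akita* mice, which carry 1 copy of *Ins2* with the C96Y change that prevents proinsulin from folding. The genes were chosen by symbol, and all 31 were among the 40914 genes with counts and among the 15407 genes tested. They were grouped into 19 synthesis enzymes, 4 SREBP regulators, 3 sterol transport genes and 5 LXR receptors and targets. Mice were 19 to 21 days old, and islets of both genotypes were kept overnight in medium with 11.1 mmol/l glucose and 10% serum before RNA extraction. Each genotype had 3 libraries (WT1 to WT3 and AK4 to AK6), and each library held the pooled islets of 3 mice. A pool averages its mice, so that differences between single animals were not measured. Whole islets hold several cell types, and in such samples fewer cells of a type and less RNA per cell cannot be told apart. The study counted cells at this age. It reported a similar ratio of β-cells to α-cells in both genotypes, and similar β-cell counts for a given islet area. Serum in the medium carries lipoprotein cholesterol, which both genotypes received.

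Cells make cholesterol from acetyl-CoA through the mevalonate pathway, and they limit it by feedback. When sterols are low in the ER membrane, the escort protein SCAP carries the transcription factor SREBP2 to the Golgi, where it is cut and freed to switch on the synthesis enzymes, and INSIG proteins hold SCAP back when sterols are plentiful. When sterols are in excess, oxysterols bind the liver X receptors (LXRs), nuclear receptors that switch on the cholesterol exporters. The membranes of the islet β-cell and of its insulin granules contain cholesterol, and the exporter ABCA1 is known to be required for normal insulin secretion in mice.

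The libraries held 22069554 to 27043169 counts. The 2 insulin genes took 17.6% to 19.2% of the counts in WT islets and 11.8% to 12.6% in *Akita* islets. β-cell markers were present in every library, and 3 of 8 passed the test as lower in *Akita* islets, beside 0.857% of all genes tested. The α-cell markers summed to 26886, 38128 and 41925 CPM (counts scaled to a common library size by the TMM method) in WT1 to WT3. In AK4 to AK6 they summed to 38827, 60668 and 56205 CPM. None of 6 passed the test, but all 6 were above 0 on the log2 scale, beside 7678 of all 15407 genes tested. An unadjusted p under 0.05 toward higher *Akita* levels was found for 3 of the 6, beside 9.81% of all genes tested. The macrophage markers summed to 321, 194 and 184 CPM in WT islets and to 258, 101 and 148 CPM in *Akita* islets. Of 15 tested markers 14 were below 0 on the log2 scale, beside 7729 of all 15407 genes, and none was past the test. Acinar markers ranged from 270 to 6756 CPM in WT pools and from 221 to 7457 CPM in *Akita* pools, mesenchyme markers from 60.8 to 581 and from 166 to 300 CPM, and endothelial markers from 159 to 243 and from 151 to 232 CPM. None of 5 adipocyte markers was abundant enough to be tested. Red blood cell markers were weak, at 7.97, 4.71 and 7.59 CPM in WT pools and 9.18, 22.0 and 23.9 CPM in *Akita* pools. All 4 that were tested had an unadjusted p under 0.05 toward higher *Akita* levels, beside 9.81% of all genes tested.

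No cholesterol gene passed the test between the genotypes. With limma-voom and Benjamini–Hochberg adjustment over all genes, 0 of the 31 genes were called higher in *Akita* islets and 0 were called lower, at a threshold of 0.05 on the adjusted p, where 1.62% of all genes tested were called, 0.759% higher and 0.857% lower. The unadjusted p was under 0.05 for *Mvd*, *Nr1h3* and *Abca1*, each with a higher mean in *Akita* islets, and for *Sqle* and *Tm7sf2*, each with a lower mean. These 5 genes made up 16.1% of the 31, against 18.7% of all genes tested, of which 9.81% were higher and 8.88% lower. The 2 genotypes did not overlap in 3 genes with higher *Akita* levels (*Ggps1*, *Nr1h3*, *Abca1*) and in 4 with lower levels (*Pmvk*, *Sqle*, *Tm7sf2*, *Msmo1*), beside 13.2% and 12.2% of all genes. Log2 fold changes ran from -0.58 to 0.60 with a median of -0.02, and the median of all genes tested was -0.001. By role, the median was -0.10 for the enzymes, 0.01 for the SREBP regulators, -0.11 for sterol transport and 0.33 for the LXR genes. With single libraries left out, these medians ranged from -0.18 (without WT1) to 0.05 (without WT3) for the enzymes, from -0.05 to 0.05 (without WT1 and without WT3) for the SREBP regulators, from -0.14 (without AK5) to -0.07 (without AK4) for sterol transport and from 0.20 (without WT2) to 0.44 (without WT3) for the LXR genes. The enzyme and transport medians were below 0 with 3 scalings and above 0 (0.02 and 0.01) with library totals alone, a scaling that moved the median of all genes to 0.12.

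**Figure D1:**
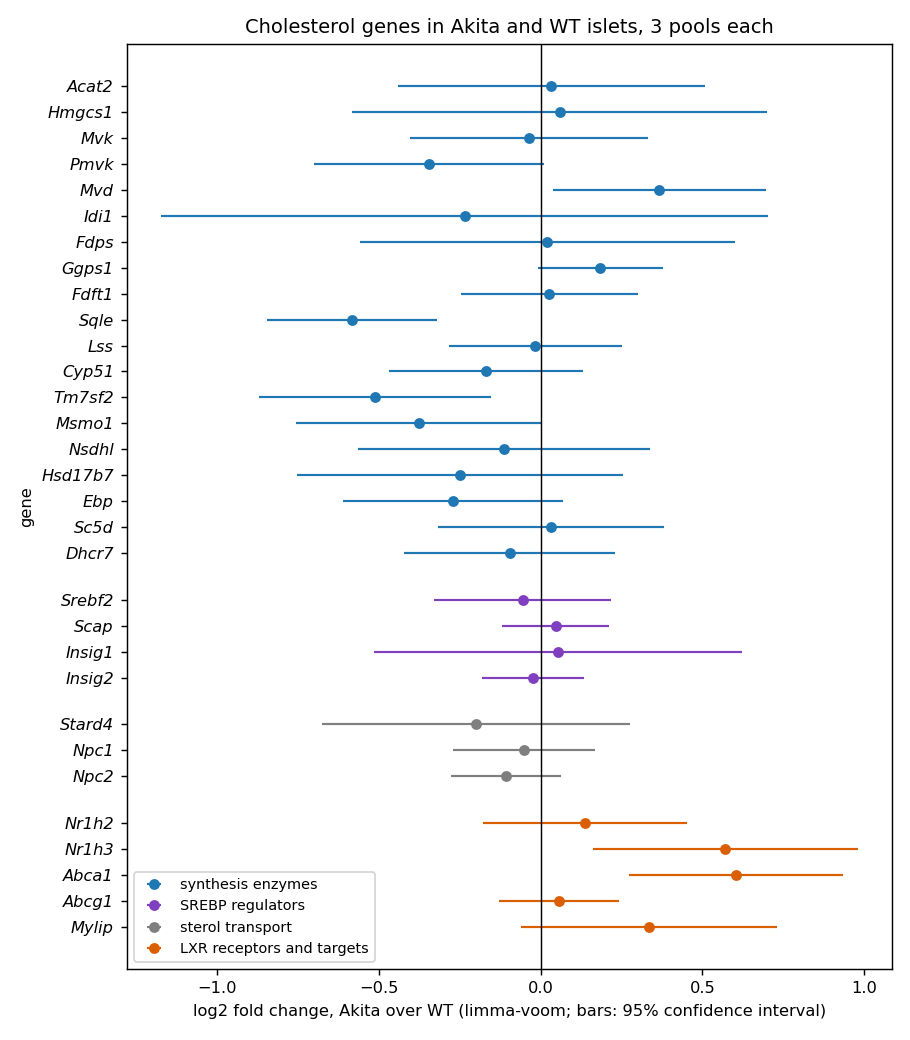
Log2 fold change of *Akita* over WT islets for the 31 genes by role (points), with the 95% confidence interval of the limma-voom fit (bars), 3 pools per genotype. The intervals of *Sqle* and *Tm7sf2* lie below 0 and those of *Mvd*, *Nr1h3* and *Abca1* above 0, before any adjustment for the number of genes tested.

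Read per length, as CPM per kilobase of annotated exon, the genes spanned a wide range of levels in islets. In WT pools, the highest were *Insig1* at 50.4 ± 13.0 and *Sqle* at 50.4 ± 6.94 CPM per kilobase (SD, n = 3). They were followed by *Hmgcs1* at 39.2 ± 12.04, *Npc2* at 31.1 ± 1.45, *Cyp51* at 29.4 ± 4.73 and *Msmo1* at 26.8 ± 5.18 CPM per kilobase. Among these 6 genes, neighbours in the order differed by less than the larger of their SDs. The lowest were *Tm7sf2* at 2.45 ± 0.338, *Fdps* at 2.15 ± 0.660 and *Idi1* at 1.117 ± 0.401 CPM per kilobase. In *Akita* pools *Sqle* stood at 33.4 ± 1.61 CPM per kilobase, below *Insig1* at 52.4 ± 13.3 and *Hmgcs1* at 40.4 ± 10.5.

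**Figure D2:**
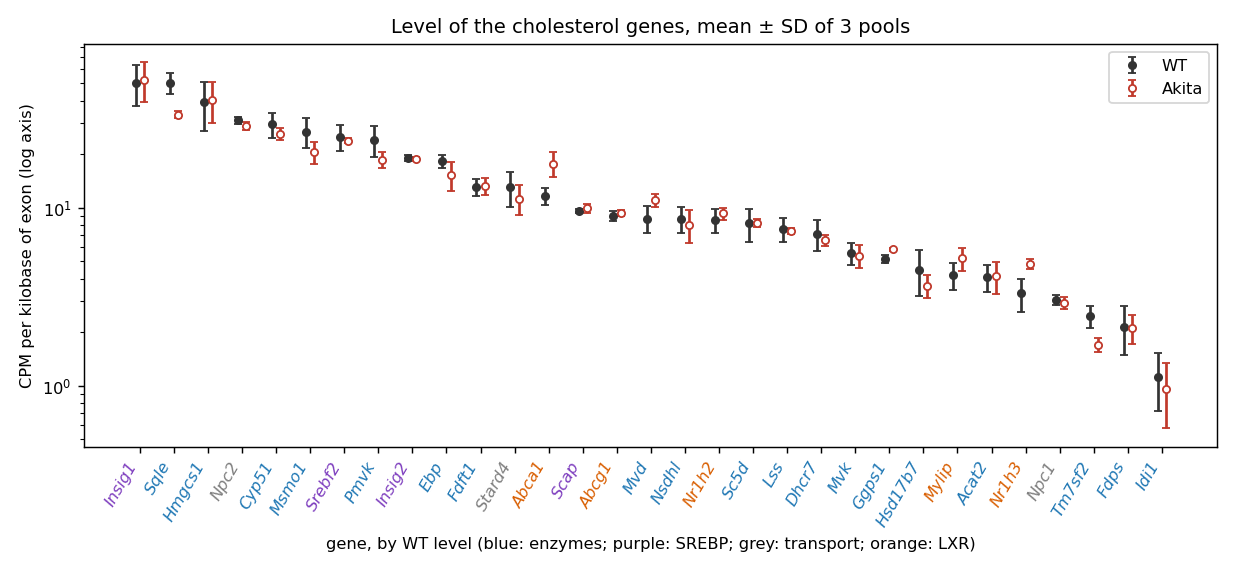
Level of each gene per kilobase of annotated exon (log axis), mean ± SD of 3 pools, WT filled and *Akita* open, ordered by the WT level and coloured by role. *Insig1* and *Sqle* head the order at 50.4 CPM per kilobase in WT islets and *Idi1* ends it at 1.117.

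Some of these levels rest on sequence that is shared. Of the 50-base windows in the transcripts of *Acat2*, 39.1% also occurred in another gene, mainly its tandem neighbour *Acat3*. For *Fdft1* the share was 26.5%, for *Fdps* 26.2% and for *Idi1* 25.3%. The RNA kit does not mark strand, and exons of other genes covered 26.7% of the exon bases of *Fdps*, 18.3% of *Fdft1* (from *Ctsb* on the opposite strand), 13.2% of *Scap*, 12.1% of *Hmgcs1* and 12.1% of *Tm7sf2* (from *Vps51* on the same strand). The values of these genes are less certain than those of *Sqle*, with 0.0358% of its windows shared, and of *Abca1* and *Mvd*, with 0.

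The enzymes that lead to mevalonate and its activated isoprene units came first. *Acat2*, a cytosolic thiolase that joins acetyl-CoA units, measured 9.3, 9.3 and 12.5 CPM in WT pools and 11.8, 11.6 and 8.0 CPM in *Akita* pools. *Hmgcs1* makes HMG-CoA, the substrate of the rate-limiting step. It measured 125, 180 and 235 CPM in WT1, WT2 and WT3 and 133, 228 and 195 CPM in AK4, AK5 and AK6. The genotypes overlapped fully, with a log2 fold change of 0.06 and a 95% interval of -0.58 to 0.70. Within WT islets the highest pool was 1.89-fold above the lowest, while the *Akita* mean was 1.03 times the WT mean.

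For 25 of the 31 genes, 32 promoters were matched in a RefSeq table (GRCm38.p6) that gives 250 bases before and 50 after each transcription start. The promoter of *Hmgcs1* is shown because it was the one that matched the searched form of the sterol regulatory element, which SREBPs bind. Capitals mark that element (TCACNCCAC, starting 137 bases before the start) and 4 NF-Y boxes (CCAAT, here read as ATTGG on the opposite strand). NF-Y is a general transcription factor known to work beside SREBPs. The promoter of *Msmo1*, a later enzyme, is shown for its 3 NF-Y boxes in capitals, 160, 96 and 55 bases before the start. *Hmgcs1* lies on the plus strand at chr13:119690101-119690400 and *Msmo1* on the minus strand at chr8:64733529-64733828.
Hmgcs1: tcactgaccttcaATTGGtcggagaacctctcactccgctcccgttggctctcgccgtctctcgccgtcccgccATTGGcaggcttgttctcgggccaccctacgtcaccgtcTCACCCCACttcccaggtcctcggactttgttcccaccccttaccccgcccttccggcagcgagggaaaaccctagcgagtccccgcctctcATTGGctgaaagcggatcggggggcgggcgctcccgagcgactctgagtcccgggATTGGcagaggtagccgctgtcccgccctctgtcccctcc
Msmo1: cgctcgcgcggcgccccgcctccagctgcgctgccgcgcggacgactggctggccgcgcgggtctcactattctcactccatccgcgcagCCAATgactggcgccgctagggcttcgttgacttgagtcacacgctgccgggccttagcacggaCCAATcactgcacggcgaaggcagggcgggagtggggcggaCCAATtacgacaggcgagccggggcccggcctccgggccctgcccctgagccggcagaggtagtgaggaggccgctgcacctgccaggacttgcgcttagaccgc

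Searched on both strands, this form of the sterol regulatory element was in 1 of the 32 promoters, beside 1.24% of all 32851 promoters in the table. Only this string was searched, so other forms of the element were not counted and may be present in the other promoters. The NF-Y box was in 20 of the 32 promoters, beside 37.4% of all. Counted by gene, with a match in any of its promoters, it was in 20 of 25 genes and in 15 of 16 enzymes, beside 41.1% of all 27025 genes in the table. A GC box (CCGCCC), the letters bound by SP1, was in 24 of the 32 promoters, beside 35.7% of all, and in 21 of 25 genes and 14 of 16 enzymes, beside 38.2% of all genes. The element and the NF-Y boxes do not overlap in *Hmgcs1*. These matches are descriptions of the letters in this window, and the promoters were not matched for base composition.

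*Mvk*, mevalonate kinase, measured 13.2 to 17.2 CPM in WT pools and 11.98 to 16.1 CPM in *Akita* pools. *Pmvk*, which adds the next phosphate, measured 35.8, 37.2 and 50.5 CPM in WT pools and 34.8, 28.5 and 32.4 CPM in *Akita* pools. The genotypes did not overlap, though AK4 and WT1 were close, and the difference did not pass (log2 fold change -0.35 ± 0.15 SE, adjusted p = 0.279 by limma-voom). *Mvd* decarboxylates mevalonate diphosphate to isopentenyl diphosphate. It measured 14.9, 14.3 and 19.3 CPM in WT pools and 22.0, 18.5 and 21.1 CPM in *Akita* pools. AK5 was below WT3, and the log2 fold change of 0.37 ± 0.14 did not pass (adjusted p = 0.228). It was the single enzyme of the 19 with an unadjusted p under 0.05 toward higher *Akita* levels.

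The isoprene units are then joined. *Idi1*, which interconverts the isomers, was the weakest gene, at 2.7, 3.6 and 5.5 CPM in WT pools and 1.8, 3.8 and 4.4 CPM in *Akita* pools, and its interval of -1.17 to 0.70 left a wide range of differences possible. *Fdps*, which makes farnesyl diphosphate, measured 6.7 to 12.1 CPM in WT pools and 7.1 to 10.3 CPM in *Akita* pools. *Ggps1* makes geranylgeranyl diphosphate, the branch used for protein prenylation rather than sterols. It measured 23.2, 25.7 and 24.1 CPM in WT pools and 28.1, 27.0 and 27.7 CPM in *Akita* pools. Each *Akita* pool exceeded each WT pool by a narrow margin (log2 fold change 0.18 ± 0.08, adjusted p = 0.285). *Fdft1*, squalene synthase and the first committed enzyme of the sterol branch, measured 51.4 to 62.2 CPM in WT pools and 49.9 to 62.7 CPM in *Akita* pools.

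*Sqle* was the member nearest to the threshold. It encodes squalene epoxidase, the first oxygenation step and a second control point of the pathway, and lies at chr15:59315077-59331192 on GRCm38. It measured 235, 301 and 303 CPM in WT1 to WT3 and 184, 177 and 195 CPM in AK4 to AK6. Every *Akita* pool lay below every WT pool, and the *Akita* pools differed among themselves by 1.10-fold. The *Akita* level was 0.667 times the WT level in the fit (95% interval 0.556 to 0.801), a log2 fold change of -0.58 ± 0.11 that did not pass (limma-voom, adjusted p = 0.0595). *Sqle* passed when WT1 was left out (adjusted p = 0.0409), and its adjusted p ranged from 0.0270 to 0.220 over 18 alternatives. By another test (DESeq2) with a threshold of 0.05 on the unadjusted p, the study listed *Sqle* as lower in *Akita* islets. The p it gave for *Sqle* was far below that threshold. It listed *Elovl6*, a fatty acid gene described below, as lower too. Set against the other enzymes, *Sqle* made up 23.5%, 25.6% and 21.6% of the summed enzyme CPM in WT pools and 19.5%, 16.4% and 18.5% in *Akita* pools. The other 18 enzymes summed to 764, 875 and 1098 CPM in WT pools and to 760, 905 and 859 CPM in *Akita* pools, and the genotypes overlapped.

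**Figure D3:**
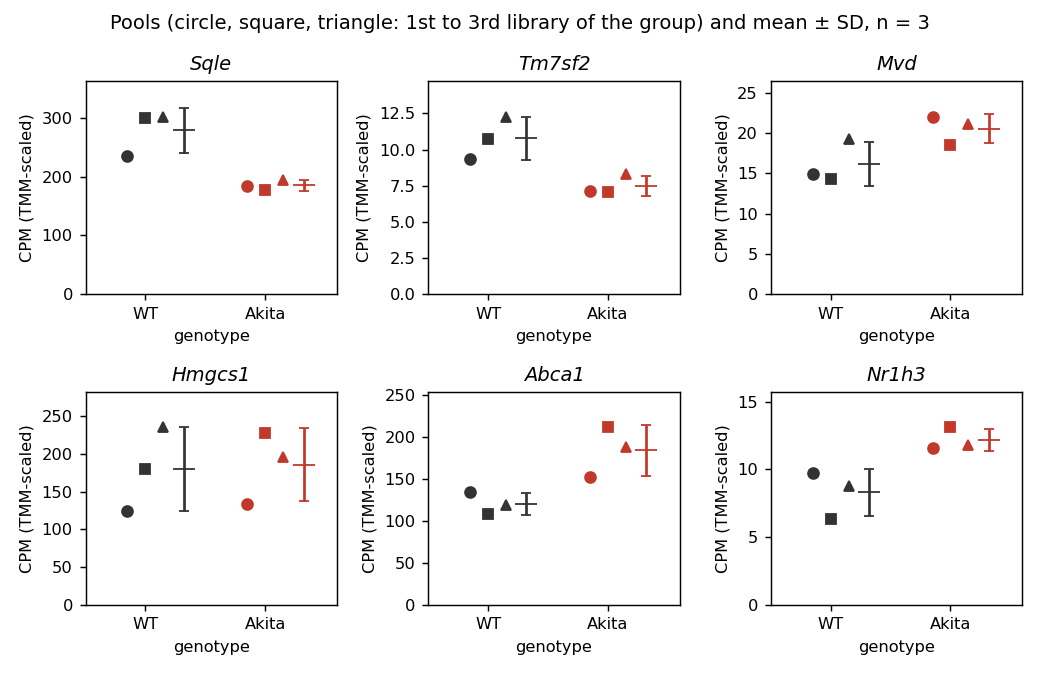
CPM (TMM-scaled) of 6 genes in each of the 3 WT and 3 *Akita* pools (symbols) with the mean ± SD beside them; each vertical axis starts at 0. *Sqle*, *Tm7sf2*, *Abca1* and *Nr1h3* do not overlap between genotypes, *Mvd* overlaps in 1 *Akita* pool, and *Hmgcs1* spreads over 1.89-fold within WT.

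From lanosterol onward the log2 fold changes ran from -0.51 (*Tm7sf2*) to 0.03 (*Sc5d*), and none passed. *Lss*, which closes the sterol rings, measured 70.9 to 95.3 CPM in WT pools and 77.1 to 83.2 CPM in *Akita* pools. *Cyp51*, the lanosterol demethylase, measured 109, 129 and 151 CPM in WT pools and 105, 121 and 118 CPM in *Akita* pools (log2 fold change -0.17, interval -0.47 to 0.13). *Tm7sf2*, a sterol C14 reductase, measured 9.3, 10.7 and 12.3 CPM in WT pools and 7.1, 7.0 and 8.3 CPM in *Akita* pools. These groups did not overlap, with a log2 fold change of -0.51 ± 0.15 that did not pass (adjusted p = 0.142).

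*Msmo1*, a sterol C4 methyl oxidase whose promoter is printed above, measured 139, 155 and 200 CPM in WT pools and 106, 136 and 136 CPM in *Akita* pools. The genotypes did not overlap, but AK5 and AK6 were close to WT1, and the log2 fold change of -0.38 ± 0.16 did not pass (adjusted p = 0.270). *Nsdhl* and *Hsd17b7* act with it to remove the C4 methyl groups. *Nsdhl* measured 20.02 to 27.5 CPM in WT pools and 17.8 to 27.2 CPM in *Akita* pools, and *Hsd17b7* 17.8 to 30.4 and 15.8 to 21.3 CPM. The last steps overlapped as well. *Ebp*, a sterol isomerase, measured 38.7, 42.8 and 45.5 CPM in WT pools and 41.5, 28.6 and 35.7 CPM in *Akita* pools (log2 fold change -0.27, adjusted p = 0.368). *Sc5d*, a sterol C5 desaturase, measured 32.0 to 48.5 and 37.8 to 41.9 CPM. *Dhcr7*, which reduces 7-dehydrocholesterol, measured 36.0 to 50.6 and 35.8 to 40.9 CPM.

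The WT pools mostly took the same order across the enzymes. WT1 was the lowest and WT3 the highest WT pool in 14 of the 19 enzymes (73.7%), against 17.4% of all genes tested. WT3 alone was highest in 17 of 19 and WT1 alone lowest in 15 of 19, against 30.8% and 37.7% of all genes. With the other scalings the count of 14 became 13, 12 and, with library totals, 11. The summed enzyme level was 999, 1176 and 1401 CPM in WT1, WT2 and WT3, a range that held the *Akita* sums of 1082 and 1054 CPM in AK5 and AK6 but not that of 945 CPM in AK4. In 15 of 19 enzymes the log2 range between WT pools was larger than the log2 difference between genotypes, the exceptions being *Sqle*, *Tm7sf2*, *Ggps1* and *Ebp*, beside 68.6% of all genes.

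This order is a description of 3 pools and carries no test. It was shared by 6 of 6 α-cell markers, by 2 of 8 β-cell markers and by 0 of 15 macrophage and 0 of 16 acinar markers. Library totals fell from WT1 to WT3 (27043169, 25411705 and 22069554 counts), so depth followed the same order in reverse. The part of depth in this order was not tested. In *Akita* islets AK4 was the lowest pool in 8 of 19 enzymes, near the 38.1% of all genes. With WT3 left out the median of the enzymes was 0.05 in place of -0.10, so that its sign rested on that pool. With the α-cell marker level as a covariate, an alternative chosen after seeing the data, 9 of the 31 genes in place of 2 were past the unadjusted threshold on the lower side, beside 8.0% of all genes tested in that fit, and none passed the adjusted threshold, which 31 genes passed as higher and 31 as lower. The covariate shared the WT order of most enzymes, and all 6 α-cell markers had log2 fold changes above 0. This fit therefore cannot separate α-cell content from that order or from genotype, and no conclusion is drawn from the count of 9. The part of α-cell content in the enzyme levels was not tested beyond this fit.

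**Figure D4:**
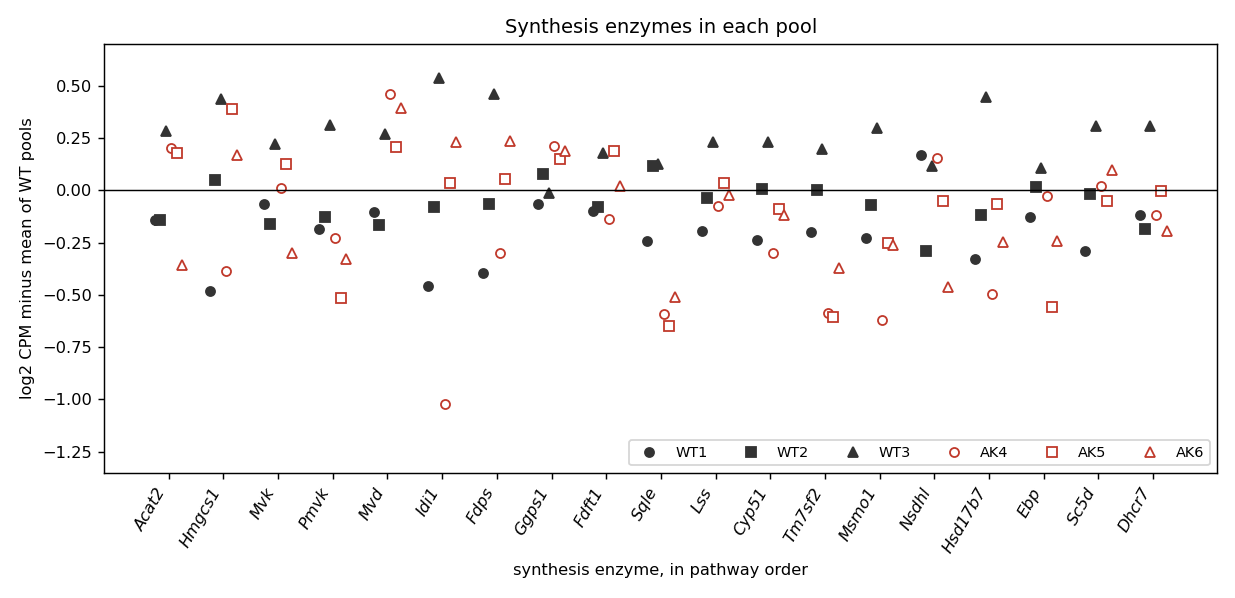
Log2 CPM of the 19 synthesis enzymes in pathway order, each relative to the mean of the 3 WT pools; filled symbols are WT1 to WT3 and open symbols AK4 to AK6. WT3 is the highest WT pool in 17 enzymes and WT1 the lowest in 15, while all *Akita* pools lie below all WT pools for *Pmvk*, *Sqle*, *Tm7sf2* and *Msmo1*.

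The genes that sense sterols had fold changes near 0. *Srebf2*, which encodes SREBP2, measured 165, 160 and 213 CPM in WT pools and 172, 176 and 165 CPM in *Akita* pools (log2 fold change -0.06, interval -0.33 to 0.22). *Scap* measured 70.9, 73.2 and 69.8 CPM in WT pools and 78.2, 71.1 and 71.8 CPM in *Akita* pools (0.05, interval -0.12 to 0.21). SREBP2 is regulated mainly by cleavage of the protein, which these counts do not measure.

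The spread between pools was wide for *Insig1* and narrow for *Insig2*. *Insig1*, itself an SREBP target, measured 126, 141 and 201 CPM in WT pools and 115, 188 and 184 CPM in *Akita* pools. It spread over 1.603-fold in WT and 1.64-fold in *Akita* islets, with WT1 and AK4 lowest as for *Hmgcs1*. *Insig2* measured 66.9, 68.6 and 63.8 CPM in WT pools and 65.1, 67.3 and 63.6 CPM in *Akita* pools, a spread of 1.07-fold and 1.06-fold. The interval of the *Akita* difference was -0.52 to 0.62 on the log2 scale for *Insig1* and -0.18 to 0.13 for *Insig2*. None of the 4 regulators was among the 5 genes past the unadjusted threshold.

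Sterol transport inside the cell gave 3 genes below 0, as were 7729 of all 15407 genes tested, and none near the threshold. *Stard4*, a soluble sterol carrier and SREBP target, measured 56.8, 72.0 and 89.5 CPM in WT pools and 49.3, 72.2 and 67.3 CPM in *Akita* pools (log2 fold change -0.20, interval -0.67 to 0.28). *Npc1* and *Npc2* export cholesterol from lysosomes after lipoprotein uptake. *Npc1* measured 32.2 to 36.4 and 31.5 to 36.3 CPM (-0.05, interval -0.27 to 0.17). *Npc2* measured 173, 174 and 160 CPM in WT pools and 149, 165 and 157 CPM in *Akita* pools (-0.11, interval -0.28 to 0.06).

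All 5 LXR genes had log2 fold changes above 0, from 0.06 to 0.60, as had 7678 of all 15407 genes tested. *Abcg1* was at 0.06, and *Nr1h2* changed sign in 1 of 18 alternatives. The gene nearest to the threshold was *Abca1*. *Abca1* exports cholesterol to apolipoprotein acceptors and lies at chr4:53030787-53159895. Its promoter is shown because it was the one that held an LXR element (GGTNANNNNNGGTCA), in capitals and on the opposite strand, 67 bases before the start. This element was in 1 of the 32 promoters and in 0.207% of all promoters in the table, and the letters searched were written with such elements of known targets in view. The promoter lies on the minus strand at chr4:53159846-53160145.
Abca1: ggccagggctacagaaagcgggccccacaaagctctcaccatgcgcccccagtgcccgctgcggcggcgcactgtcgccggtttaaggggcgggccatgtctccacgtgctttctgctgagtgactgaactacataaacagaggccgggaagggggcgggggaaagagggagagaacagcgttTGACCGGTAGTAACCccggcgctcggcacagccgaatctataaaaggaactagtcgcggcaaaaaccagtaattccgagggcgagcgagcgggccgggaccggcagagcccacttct

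*Abca1* measured 134, 108 and 118 CPM in WT1 to WT3 and 152, 211 and 188 CPM in AK4 to AK6. Every *Akita* pool lay above every WT pool, with AK4 close to WT1. The *Akita* level was 1.52-fold the WT level (95% interval 1.21 to 1.91), a log2 fold change of 0.60 ± 0.14 that did not pass (limma-voom, adjusted p = 0.0876). *Abca1* passed when AK4 was left out (adjusted p = 0.0303) and with library totals (adjusted p = 0.0407), and its adjusted p ranged from 0.0267 to 0.274 over 18 alternatives. Macrophages express this gene strongly. The sums of their markers overlapped between the genotypes, AK4 lying above WT2 and WT3, while 14 of 15 tested markers had log2 fold changes below 0. With the macrophage marker level as a covariate the log2 fold change of *Abca1* was 0.54, and with the α-cell level it was 0.53. The part of macrophage or α-cell content in the *Abca1* difference was not tested beyond these fits.

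The other exporter had a fold change near 0, and the difference between the exporters was not tested. *Abcg1*, which passes cholesterol to HDL particles, measured 67.3, 69.4 and 60.6 CPM in WT pools and 67.6, 71.3 and 66.2 CPM in *Akita* pools (log2 fold change 0.06, interval -0.13 to 0.24). The ratio of *Abca1* to *Abcg1* CPM was 1.996, 1.56 and 1.95 in WT pools and 2.24, 2.96 and 2.84 in *Akita* pools, without overlap and without a test. *Nr1h3*, the receptor LXRα, measured 9.7, 6.4 and 8.8 CPM in WT pools and 11.6, 13.1 and 11.8 CPM in *Akita* pools. Its groups did not overlap, and the log2 fold change of 0.57 ± 0.17 did not pass (adjusted p = 0.148). *Nr1h2*, the receptor LXRβ, measured 31.9, 23.4 and 30.3 CPM in WT pools and 30.7, 33.8 and 28.9 CPM in *Akita* pools (0.14, interval -0.18 to 0.45). *Mylip* encodes IDOL, a ubiquitin ligase that degrades lipoprotein receptors. It measured 13.7, 11.02 and 15.7 CPM in WT pools and 15.2, 19.7 and 15.6 CPM in *Akita* pools (0.33, interval -0.06 to 0.73, and 0.20 without WT2).

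Genes of 7 neighbouring lists were read in the same way. Of 84 listed genes 79 were tested, and 0 passed the adjusted threshold. An unadjusted p under 0.05 was found for 16 on the higher side and 11 on the lower. Together these made up 34.2% of the 79, beside 18.7% of all genes tested. The lists were chosen with earlier results of these data known, so no conclusion is drawn from the larger share. Among LXR partners and other LXR targets, 0 of 8 passed. *Rxra*, the partner with which LXRs bind DNA, measured 43.2, 40.1 and 43.9 CPM in WT pools and 53.1, 75.3 and 60.4 CPM in *Akita* pools (log2 fold change 0.56, adjusted p = 0.0982). *Rxrb* (0.22), *Smpdl3a* (0.30) and *Lpl* (0.26) had adjusted p-values of 0.205, 0.202 and 0.329.

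Among 21 genes of lipoprotein uptake and sterol traffic, 0 passed. *Vldlr*, a lipoprotein receptor, measured 65.5, 54.5 and 56.8 CPM in WT pools and 77.3, 84.1 and 76.4 CPM in *Akita* pools (log2 fold change 0.43, adjusted p = 0.0735). *Scarb1*, the HDL receptor, measured 39.4, 33.5 and 40.1 CPM in WT pools and 46.6, 55.3 and 52.7 CPM in *Akita* pools (0.46, adjusted p = 0.0882). *Gramd1a*, which moves sterol from the plasma membrane to the ER, had a log2 fold change of 0.42 (adjusted p = 0.0816), and the oxysterol-binding protein relative *Osbpl1a* one of -0.41 (adjusted p = 0.0753).

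The partners that supply electrons to the sterol enzymes had fold changes in both directions. *Cyb5b*, a cytochrome b5, measured 372, 413 and 432 CPM in WT pools and 305, 281 and 317 CPM in *Akita* pools (log2 fold change -0.43, adjusted p = 0.0621). *Cyb5r3*, a cytochrome b5 reductase, measured 336, 297 and 315 CPM in WT pools and 399, 473 and 411 CPM in *Akita* pools (0.43, adjusted p = 0.0688). *Pgrmc1*, which binds CYP51, and *Por*, which donates electrons to it, had log2 fold changes of 0.51 and 0.16 (adjusted p = 0.172 and 0.336). Among 6 tested genes of this list, 0 passed.

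Among 14 genes of the isoprenoid branches 0 passed, with log2 fold changes of -0.30 for *Zmpste24*, a prenyl protein protease (adjusted p = 0.0858), 0.22 for *Dhdds*, which makes dolichol precursors (adjusted p = 0.159), -0.68 for *Pdss1* of ubiquinone synthesis and -0.25 for *Srd5a3* of dolichol synthesis (both adjusted p = 0.172). Among 10 genes of SREBP processing and sterol-regulated degradation 0 passed. *Erlin1* was at -0.29, the SREBP protease gene *Mbtps1* at 0.17, *Rnf145* at 0.25 and *Erlin2* at 0.08 on the log2 scale, with adjusted p-values of 0.152, 0.203, 0.312 and 0.571.

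Fatty acid genes that SREBPs also switch on numbered 15, and 0 passed. *Aacs*, a ketone-using acetoacetyl-CoA synthetase, measured 105, 97.3 and 108 CPM in WT pools and 121, 125 and 140 CPM in *Akita* pools (log2 fold change 0.32, adjusted p = 0.107). *Elovl6*, a fatty acid elongase, and *Scd2*, a desaturase, were at -0.46 and -0.44 (adjusted p = 0.167 and 0.187), and *Me1*, which makes NADPH, at 0.24 (adjusted p = 0.169). Of 7 genes of sterol esterification and oxysterol enzymes 5 were tested and 0 passed. The oxysterol hydroxylases *Cyp7b1* and *Cyp39a1* had log2 fold changes of 0.56 and 0.51 (adjusted p = 0.123 and 0.122), and the esterifying enzymes *Soat1* and *Soat2* had -0.38 and 1.66 (adjusted p = 0.256 and 0.213). *Soat2* was weak, at 0.19 to 0.34 CPM in WT pools and 0.40 to 1.55 CPM in *Akita* pools.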

How the data were processed

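Whole islets of WT and *Akita* mice were sequenced in 3 libraries per genotype, each from 120 ng of total RNA, with a poly-A kit that does not mark strand. Per the labels and the study's methods, the authors used cutadapt 1.12 for trimming, STAR 2.5.2b for alignment (GRCm38) and HTSeq 0.7.2 for counting. The annotation release used for counting is not given in the sources used here. Besides raw counts, the deposited table holds the authors' normalized counts and their DESeq2 1.12.4 fold changes and p-values, none of which were used. Of 47729 genes, 6815 carried a mark in place of counts (a value of another kind in an otherwise whole-number column) and were left out. The other 40914 held whole-number counts. The main test on them was limma-voom, and no count model was run.

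Genes were kept when 3 libraries had at least the CPM that 10 counts give in a library of median size, with a sum of 15 or more; 15407 passed. TMM factors were computed with trims of 30% and 5%. The voom pseudocount was 0.5, no covariate was used, and the threshold was 0.05 on the p adjusted by Benjamini–Hochberg across every gene tested. The share at an unadjusted p under 0.05 is given beside it. Fold changes, standard errors and 95% intervals came from the fit, and the fit was tested on simulated data. R 4.3.3, limma 3.58.1 and Python 3.11.15 were used. Exon lengths, overlaps and shared 50-base windows came from GENCODE M21, and promoters from RefSeq (GRCm38.p6). Transcript models of that release may include retained introns, which lowers levels per kilobase.

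The members and lists were chosen with earlier results of these data known. The text names all 31 members and, of each of 7 further pathway lists, the genes past the threshold or otherwise up to 4 with the lowest adjusted p, and gives the summed level of each marker list. Counts of libraries within a genotype differed beyond sampling noise, and each was kept as a replicate. The labels do not say more of the pools' independence. Each p-value sets the genotype difference against the spread between these pools within a genotype, with the variance drawn toward that of other genes. Alternatives were other scalings, filters, fits, covariates and thresholds, and each library left out. Genes that are not named are not reported here.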

Additional observations from a re-analysis of the deposited data

How the results depend on the processing

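No paired analysis was possible because the *Akita* columns are numbered 4 to 6 and do not carry the replicate numbers of the labels. Over 18 alternatives *Sqle* stayed between -0.71 and -0.46 and *Abca1* between 0.50 and 0.81, while no other member passed the adjusted threshold under any of them. *Sqle* passed in 5 alternatives and *Abca1* in 4. Members with fold changes near 0 changed sign most often with library totals and with the α-cell covariate (8 each). With library totals alone, 1 member was called higher, 5 were higher at an unadjusted p under 0.05, and the medians of the SREBP regulators and of sterol transport were 0.13 and 0.0121. With no filter 4 members were lower at an unadjusted p under 0.05. With limma-trend on log2(CPM + 1), 1 was called lower and 4 were lower at an unadjusted p under 0.05. With sample quality weights 1 was called higher and 1 lower, and 5 were lower at an unadjusted p under 0.05. With the macrophage markers as a covariate 1 was called lower and 7 were lower at an unadjusted p under 0.05. At an adjusted p under 0.10 the calls were 1 higher and 1 lower, and at an unadjusted p under 0.05 they were 3 higher and 2 lower. Leaving out each library in turn gave 0 to 1 called higher (1 without AK4), 0 to 1 called lower (1 without WT1), and 2 to 5 lower at an unadjusted p under 0.05. Chosen after seeing the data, leaving out WT1 and AK4 together gave 1 called higher, 1 called lower and 5 lower at an unadjusted p under 0.05, and the α-cell markers as a covariate gave 9 lower at an unadjusted p under 0.05 and a median of -0.0871 for the SREBP regulators. The share of all genes lower at an unadjusted p under 0.05 ran from 4.29% with library totals to 11.3% without WT1 and AK4. The cause of these shifts was not tested. Over all genes, 249 were called with all libraries, 65 without WT1, 7 without WT2, 1 without WT3, 640 without AK4, 52 without AK5 and 0 without AK6 (where the unadjusted p was under 0.05 for 1229 higher and 1194 lower genes), so the number of calls rests on single pools.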
